A study of Sus scrofa with 14 samples.

Results

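Complement is a cascade of plasma and tissue proteins that mark and lyse cells. Factor B (CFB) and factor D (CFD, also called adipsin) are serine proteases of its alternative pathway: factor D cleaves factor B once factor B is bound to C3b, and the product is the enzyme that makes more C3b. Host cells are shielded by regulators, among them CD59, a membrane-anchored protein that blocks assembly of the membrane attack complex, and C4b-binding protein, whose alpha chain is C4BPA and which helps to inactivate C4b. In a pregnant uterus these proteins act at the surface where maternal tissue meets the semi-allogeneic conceptus.

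The 4 genes CFB, CFD, CD59 and C4BPA were followed in pregnant uterus, through every probe set whose only gene symbol was one of them. They are 4 of 6765 genes with such a probe set and hold 6 of the 23999 probe sets tested. CFB and CD59 had a pair of probe sets each, and CFD and C4BPA had 1 each. All 6 were measured in every array, since no filter on dim values was applied.

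The samples were whole uterus of 14 Iberian x Meishan F2 sows, the second generation of a cross between a Spanish and a Chinese pig breed, frozen at slaughter between days 30 and 32 of the fifth gestation. The labels class 5 sows as high and 9 as low prolificacy, call each a biological replicate, and give no treatment, allele or age. Each sow had 1 Affymetrix porcine array, and the values are RMA log2 levels, so a difference of 1 is a doubling. The study compared gene expression between the classes of sow, and the arrays are called high 1 to high 5 and low 1 to low 9 after the labels' replicate numbers.

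Uterine markers were present: high prolificacy arrays averaged 11.00 ± 1.24 (SD, n = 5) for the smooth muscle actin ACTA2 and low prolificacy arrays 13.40 ± 0.13 (SD, n = 9), with values for the epithelial adhesion molecule EPCAM of 11.46 ± 0.60 (SD, n = 5) and 10.19 ± 1.27 (SD, n = 9). The tissue composition was not the same in the classes. All 14 measured smooth muscle genes were lower in high prolificacy in limma (adjusted p under 0.05), and their mean, centred on 0 over the 14 arrays, ran from -3.61 to -0.01 in high and from 0.75 to 1.94 in low prolificacy. Of 15 epithelium genes 7 were higher and 0 lower, with a mean of 0.48 to 1.58 in high and -2.57 to 0.20 in low prolificacy. Of 10 stroma genes 4 were lower and 1 higher (mean -1.04 to 0.29 in high, -0.46 to 0.83 in low prolificacy), of 5 neutrophil genes 1, S100A9, was higher (mean 0.01 to 0.93 and -0.55 to 0.03), and of 10 endothelium genes 1 was higher and 1 lower (mean -0.86 to 0.44 and -0.36 to 0.68). Of all genes, 5.34% were called higher and 5.42% lower, so nothing is read from the neutrophil and endothelium counts. The part of these lists in the members' differences was not tested, apart from a fit with smooth muscle and epithelium covariates given below. Those covariates account for 83.1% of the variance of the class label, so that fit cannot part them from the class. High 4 had the highest mean of fetal plasma protein genes (3.51) and of trophoblast genes (2.00), against group maxima of 1.40 and 1.08 in low prolificacy. In such samples, fewer cells of a type and less RNA per cell cannot be told apart. Array medians (5.72 to 5.84) and the 3-prime minus 5-prime difference of 10 control probe set pairs (-0.04 to 0.29 in high, -0.25 to 0.29 in low prolificacy) overlapped between the classes.

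The members were chosen for their difference between high and low prolificacy, so the differences below, and any limma call of a member, describe that choice and are not independent tests. CFB and CFD, the activators, were higher in high prolificacy, and CD59 and C4BPA, the regulators, were lower. All 6 member probe sets passed an adjusted p of 0.05 in limma, 3 higher and 3 lower, where 7.85% of all probe sets did (3.5% higher and 4.35% lower). Because the same contrast chose them, nothing is read from that count.

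The brighter CFB probe set had log2 levels of 7.56, 8.37, 7.27, 7.43 and 7.32 in high 1 to high 5, and in low prolificacy the lowest level was 4.63, the median 6.20 and the highest 7.10. Every high array lay above every low array, which held for 0.904% of all probe sets. High 2 was the highest of all, low 4 came closest from below, and low 9, low 6 and low 7 were lowest, at 4.63, 5.02 and 5.03. The class means were 7.59 ± 0.45 (SD, n = 5) and 5.83 ± 0.80 (SD, n = 9), a difference of 1.76 ± 0.36 (SE) on the log2 scale. The dimmer CFB probe set gave a smaller difference, 0.72 ± 0.18 (SE), from 5.78 ± 0.35 (SD, n = 9) in low to 6.50 ± 0.31 (SD, n = 5) in high prolificacy. There the classes overlapped: 3 high arrays (6.24, 6.32 and 6.35) lay under low 4 at 6.42. High 2 and low 4 were the highest of their class on both CFB probe sets, while low 8 was lowest on the dimmer one (5.21) and close to the median on the brighter (6.20).

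CFD was the member with the largest difference. Its levels were 9.41, 10.79, 10.37, 9.05 and 10.70 in high 1 to high 5, and the low arrays ran from 6.87 through a median of 7.96 to 9.09. High 2, high 3 and high 5 stood clear of all low arrays, and so did high 1 by a smaller margin, while high 4 lay within the low range, just under low 8 (9.09). The class means were 10.06 ± 0.79 (SD, n = 5) and 8.01 ± 0.73 (SD, n = 9), a difference of 2.06 ± 0.39 (SE). Low 7 (6.87) and low 6 (7.16) had the lowest CFD levels, and low 8 and low 3 (9.05) the highest of their class.

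The brighter CD59 probe set was at 10.25, 8.73, 8.27, 9.61 and 8.83 in high 1 to high 5, against 10.19 (lowest), 10.51 (median) and 10.99 (highest) in low prolificacy. High 1 lay inside the low range, above low 1 (10.19) and low 5 (10.22), and the other 4 high arrays lay below it. The low arrays were tight, with a range of 0.80, whereas the high arrays spread over 1.98. The difference was -1.44 ± 0.27 (SE), from 10.58 ± 0.28 (SD, n = 9) to 9.14 ± 0.79 (SD, n = 5). The dimmer CD59 probe set showed a like difference of -1.37 ± 0.28 (SE), with means of 5.33 ± 0.78 (SD, n = 5) and 6.70 ± 0.35 (SD, n = 9), and again only high 1 (6.25) reached the low range, whose lowest value was 6.08. After the class means were subtracted, the CD59 probe sets correlated at r = 0.80 over the 14 arrays and the CFB probe sets at r = 0.38.

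C4BPA was at 6.18, 6.37, 6.59, 8.10 and 5.68 in high 1 to high 5, and in low prolificacy at 6.82 (lowest), 7.82 (median) and 8.72 (highest). High 4 lay within the low range, above its median, and the other 4 high arrays lay below all low arrays. The means were 6.58 ± 0.91 (SD, n = 5) and 7.88 ± 0.60 (SD, n = 9), a difference of -1.29 ± 0.37 (SE), the smallest among the members' brightest probe sets. As a description of the call that chose it, C4BPA passed the threshold in 3 of the 14 fits that left out 1 array (without high 4, low 3 or low 8), with differences between -1.67 and -1.07, and it did not pass after cyclic loess, where the difference was -1.31. The dimmer CFB probe set passed in 11 of 14 (not without high 2, high 3 or high 5), and CFD, the brighter CFB and both CD59 probe sets passed in 14 of 14.

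**Figure D1:**
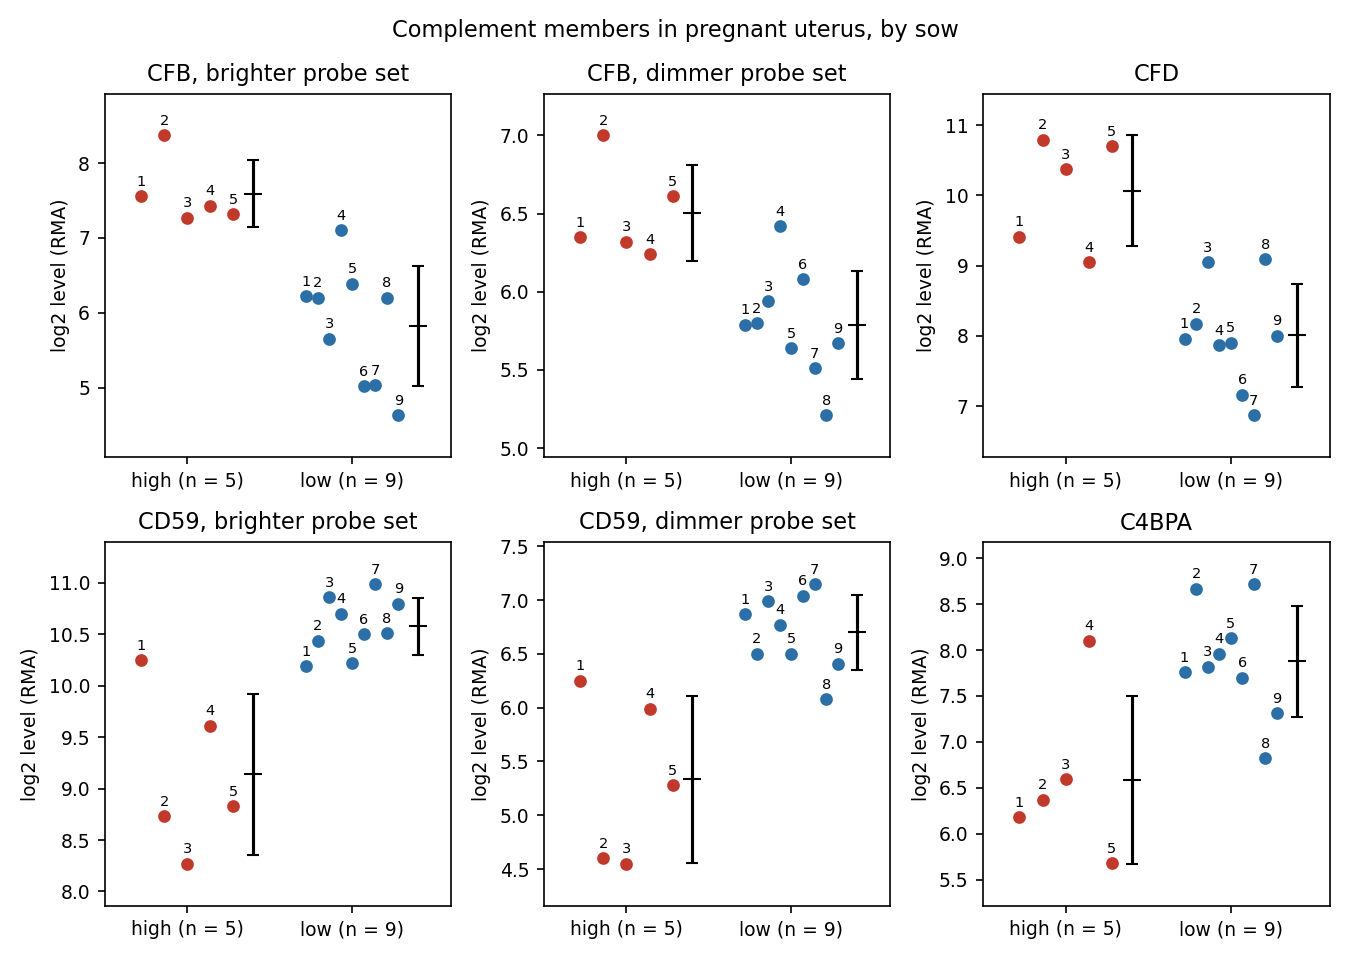
Log2 level (RMA) of the 6 member probe sets in each sow, with high prolificacy arrays (n = 5) in red and low prolificacy arrays (n = 9) in blue, numbered by replicate; black bars are the mean and SD, and each panel has its own vertical range. On the brighter CFB probe set all high arrays lie above all low arrays, while high 4 falls in the low range for CFD (9.05) and C4BPA (8.10), and high 1 for both CD59 probe sets (10.25 and 6.25).

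What the C4BPA probe set reads needs care. Under assembly Sscrofa11.1, the RefSeq gene table has 2 neighbouring genes with the symbol C4BPA, and the gene number given for the probe set is that of the copy with the synonym APOR, which lies between the other copy and CD55. Whether its probes bind transcripts of this copy, of the other copy or of both was not tested. C4BPA is therefore counted as a regulator here by its symbol alone. C4BPB, the beta chain of C4b-binding protein, was dim and differed by -0.12 ± 0.12 (SE, limma adjusted p = 0.62), and CD55, which speeds the decay of the enzymes that cleave C3, differed by 0.10 ± 0.41 (SE, limma adjusted p = 0.93). For CFB the gene beside it is C2, its counterpart in the classical pathway, at 5.57 ± 0.56 (SD, n = 5) and 5.33 ± 0.40 (SD, n = 9), which differ by 0.24 ± 0.24 (SE, limma adjusted p = 0.65).

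Activators and regulators were set against each other in each array, with every gene centred on its own mean over the 14 arrays, since levels of different probe sets cannot be compared. The mean of CFB and CFD minus the mean of CD59 and C4BPA was 1.41, 3.17, 2.53, 0.52 and 2.90 in high 1 to high 5. In low prolificacy it was -2.76 at the lowest (low 7), -0.89 at the median and 0.12 at the highest (low 8). Low 8 was the only low array above 0, and high 4 and high 1 were the high arrays nearest to it. Both sides differed: the class averages, high first, were 1.23 ± 0.51 (SD, n = 5) and -0.68 ± 0.63 (SD, n = 9) for the activator mean, and for the regulator mean -0.88 ± 0.66 (SD, n = 5) and 0.49 ± 0.34 (SD, n = 9). In high 4 the regulator mean was 0.11, above those of the other high arrays (-1.49 to -0.52), and this was the array with the highest fetal plasma protein and trophoblast means; their part in it was not tested. Since the members were picked for opposite directions, the separation of the classes on this value follows from the choice.

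**Figure D2:**
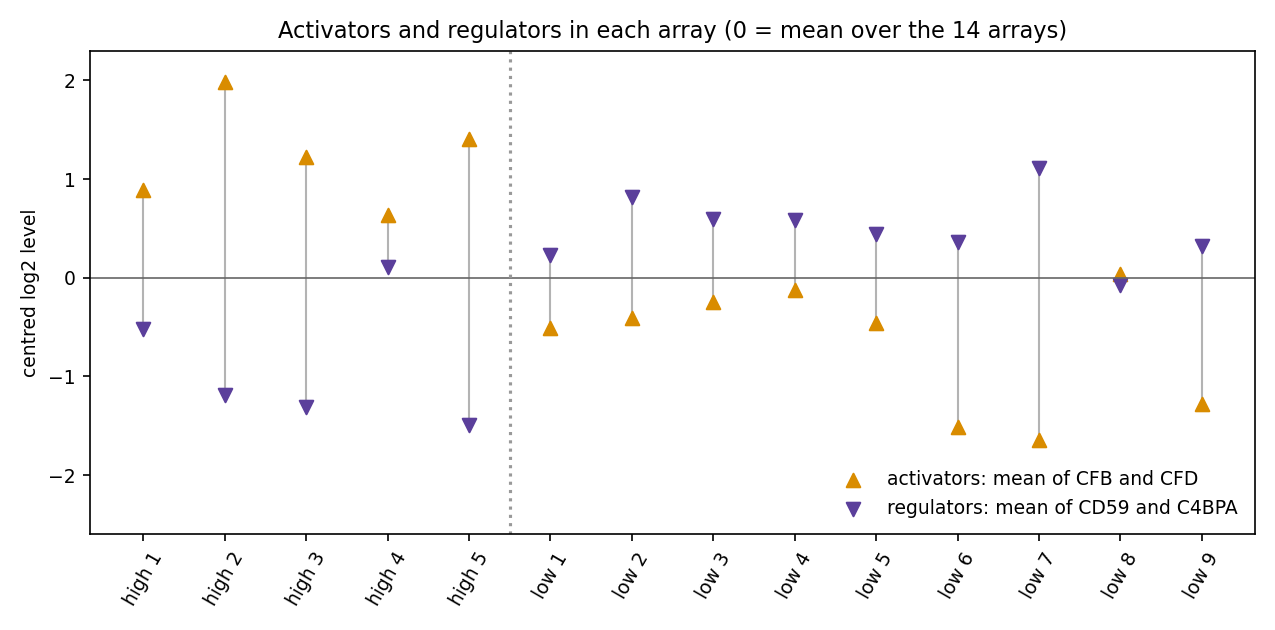
Centred log2 level of the activators (mean of CFB and CFD, triangles up) and the regulators (mean of CD59 and C4BPA, triangles down) in each of the 14 arrays, joined by a line; 0 is the mean over the 14 arrays and the dotted line parts high from low prolificacy. The activators lie above the regulators in all 5 high arrays, by 0.52 (high 4) to 3.17 (high 2), and below them in every low array except low 8, where the difference is 0.12.

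The other genes of the cascade were counted beside all genes. Of 42 other complement genes listed, 29 had a probe set with 1 symbol, and on the brightest probe set of each 0 were higher and 1 was lower in high prolificacy in limma at an adjusted p of 0.05 (4 at an unadjusted p under 0.05), or 3.45%, where 10.8% of all 6765 genes were called (5.34% higher and 5.42% lower). Their median difference was 0.12, beside 0.073 over all genes, and the median size of the difference was 0.17, beside 0.24. Groups did not overlap in 0 of the 29, against 3.78% of all genes. All genes were not matched to the 29 for level. Of the 29, 12 were among the 12000 brightest probe sets, where 14.2% of probe sets passed in their own fit. With only 29 genes, nothing is read from these shares.

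Among the other activators 0 of 12 passed in either direction in limma, with 2 at an unadjusted p under 0.05 (C5 and MBL2), and the median difference was 0.20. C3, the central component that the alternative pathway cleaves, was at 9.85, 9.65, 9.00, 10.53 and 10.02 in high 1 to high 5 and from 6.94 through a median of 9.39 to 10.64 in low prolificacy. Its classes overlapped almost fully, and low 9 (6.94) and low 7 (7.40), the arrays with the lowest epithelium means, were lowest. The C3 difference was 0.71 ± 0.56 (SE, limma adjusted p = 0.54). C5, whose cleavage starts the terminal pathway, differed by 0.75 ± 0.32 (SE, limma adjusted p = 0.19) at levels of 3.34 in low and 4.09 in high prolificacy, under all array medians. MBL2, a mannose-binding lectin that starts the lectin pathway, differed by 0.46 ± 0.20 (SE, limma adjusted p = 0.19) and passed without high 1, but in no other fit on its brightest probe set. C1R and C1S, the proteases of the first component, were bright and differed by -0.17 ± 0.26 and -0.13 ± 0.22 (SE, limma adjusted p = 0.79 and 0.81). C4A, C1QA, C1QC, FCN1, FCN2 and properdin (CFP), the stabiliser of the alternative pathway enzyme, differed by -0.14 to 0.38.

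None of the 5 terminal components measured passed in limma, and 0 had an unadjusted p under 0.05. They form the pore that CD59 blocks. C8G differed by 0.22 ± 0.14 (SE, limma adjusted p = 0.40) and C7 by 0.45 ± 0.35 (SE, limma adjusted p = 0.53), and C8A, C8B and C9 by 0.12, 0.00 and -0.03. Of the 4 complement receptors measured 0 passed and 0 had an unadjusted p under 0.05. CD93 differed by 0.53 ± 0.37 and the integrin chain ITGB2 by -0.34 ± 0.30 (SE, limma adjusted p = 0.47 and 0.59).

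Of the 8 other regulators, 0 were higher and 1 was lower. The lower one was CR1, a receptor for C3b and C4b that also breaks up the enzymes that cleave C3, at 2.48, 2.22, 2.39, 3.29 and 2.33 in high 1 to high 5 and from 3.02 through 3.62 to 4.67 in low prolificacy. Only high 4 reached the low range. The difference was -1.23 ± 0.30 (SE, limma adjusted p = 0.023), but both class means, 2.54 and 3.77, lay far under the lowest array median of 5.72, and with no detection calls it is not known whether CR1 lay above background. The call was lost without high 2, high 3 or high 5 (limma adjusted p = 0.073, 0.068 and 0.057).

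CLU, clusterin, which binds the forming pore in fluid phase, was at 11.72 ± 0.72 (SD, n = 5) and 10.77 ± 1.06 (SD, n = 9), which differ by 0.95 ± 0.49 (SE, limma adjusted p = 0.29). VTN, vitronectin, another fluid-phase inhibitor of the pore, differed by 0.93 ± 0.40 (SE, limma adjusted p = 0.19). The membrane regulator CD46 averaged 9.85 ± 0.58 (SD, n = 5) and 9.82 ± 0.30 (SD, n = 9), which differ by 0.04 ± 0.22 (SE, limma adjusted p = 0.95), and its other probe sets differed by 0.23 and 0.16. The 5 CD55 probe sets differed by -0.16 to 0.16. SERPING1, the inhibitor of C1R and C1S, differed by -0.12 ± 0.25 (SE, limma adjusted p = 0.85).

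**Figure D3:**
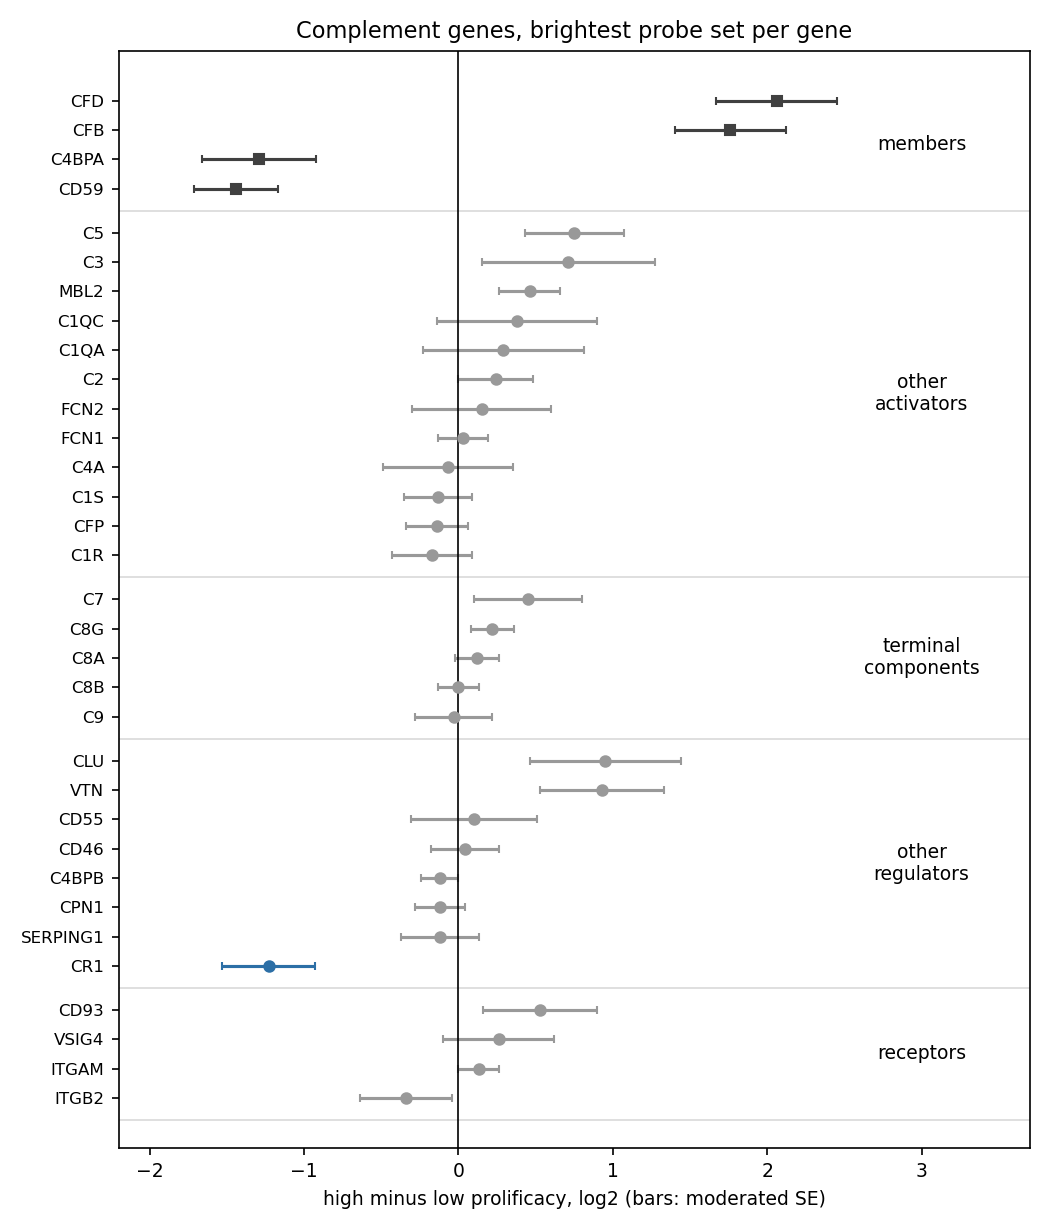
Difference in log2 level, high minus low prolificacy, with moderated SE bars, for the brightest probe set of the 4 members (dark squares) and of 29 other complement genes (circles) grouped by role. CR1 (blue, -1.23) is the only one of the 29 that passed in limma, and the other 28 (grey) lie between -0.34 and 0.95, inside the members' values of -1.29 and 1.76.

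Smooth muscle and epithelium markers differed between the classes, and member levels went with them in some arrays and not in others. On the plot of members against marker means, the high arrays with the highest epithelium means (high 2, high 3 and high 5, from 1.43 to 1.58) had the highest CFD levels (10.37 to 10.79), but high 3 and high 5 had the lowest CFB levels of their class (7.27 and 7.32). Low 7 and low 9, with the lowest epithelium means (-2.57 and -2.06), had CFB levels of 5.03 and 4.63 and CFD levels of 6.87 and 8.00, the last above the low median of 7.96. Low 6 had a CFB level as low as low 7, 5.02, at an epithelium mean of -0.75. CD59 was lowest in high 3, the array with the lowest smooth muscle mean (-3.61). High 1, whose smooth muscle mean of -0.01 was nearest to the low arrays, had the highest CD59 level of its class. High 4 did not follow this order. Its smooth muscle mean was close to those of high 2 (-2.73) and high 5, yet its CD59 level was 9.61, against 8.73 and 8.83. With the smooth muscle mean and the epithelium mean as covariates, the CD59 differences turned to 0.43 ± 0.37 and 0.30 ± 0.51 (SE), that of CFD was 0.59 ± 0.76 (SE), those of the CFB probe sets 1.20 ± 0.72 and 0.69 ± 0.46 (SE, the dimmer last) and that of C4BPA -1.64 ± 0.90 (SE). No member passed in this limma fit, nor did any of the 23999 probe sets (316 at an unadjusted p under 0.05), and both means together accounted for 83.1% of the variance of the class label.

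**Figure D4:**
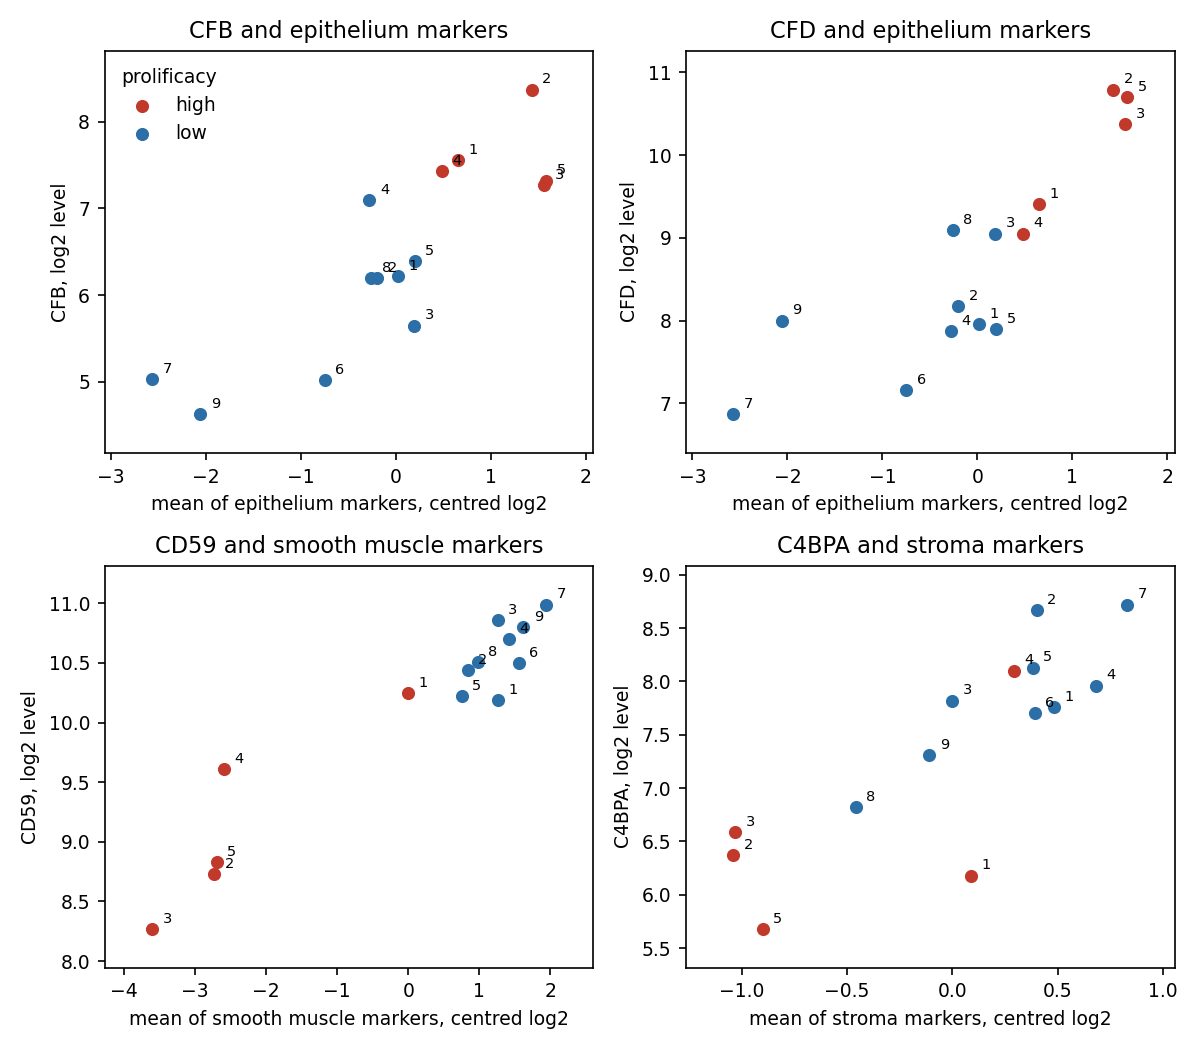
Log2 level of each member's brightest probe set against a centred mean of marker genes in the same array (epithelium for CFB and CFD, smooth muscle for CD59, stroma for C4BPA), with high prolificacy in red and low prolificacy in blue, numbered by replicate. The classes form separate clouds on the smooth muscle axis, with high 1 at -0.01 between them, and low 7 and low 9 lie apart at the low end of the epithelium axis.

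CFD is known as a product of fat cells, so adipocyte markers were examined. Of 8 adipocyte genes 0 were higher and 1 was lower, with a mean of -0.54 to 0.29 in high and -0.25 to 0.55 in low prolificacy. The defining hormone ADIPOQ was dim, at 3.73 ± 0.26 (SD, n = 5) and 3.61 ± 0.19 (SD, n = 9), and did not differ beyond its spread (difference 0.13 ± 0.13, SE, limma adjusted p = 0.65). PCK1, an enzyme of glycerol and glucose synthesis, differed by 1.57 ± 0.53 (SE, limma adjusted p = 0.085). FABP4, the fatty acid binding protein of adipocytes and endothelium, was the one that fell, at 3.73 ± 0.87 (SD, n = 5) and 6.14 ± 0.76 (SD, n = 9), which differ by -2.41 ± 0.41 (SE, limma adjusted p = 0.0032). Macrophages, a source of several complement proteins, showed 0 of 6 markers called in limma, with means of -0.79 to 0.99 in high and -0.76 to 0.54 in low prolificacy. Interferons are known to induce CFB, so 18 interferon response genes were examined. In limma 2 were higher and 0 lower, where 5.34% of all genes were called higher and 5.42% lower. With 18 genes, nothing is read from that count. Their mean was 0.02 to 0.84 in high and -0.69 to 0.41 in low prolificacy. The part of these genes in the CFB difference was not tested.

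Differences between sows of the same class were not used to choose the members, so relations were tested within the 9 low prolificacy arrays (the 5 high arrays are too few). There were 42 relations, 6 between members and 36 between a member and a list mean. None passed an adjusted p of 0.05 by exact two-sided permutation of Pearson's r or of Spearman's rho (0 each), and 6 of 42 had an unadjusted p under 0.05 for Pearson's r. Between members, r ran from -0.54 (CFD and C4BPA, exact permutation p = 0.13, adjusted 0.40; Spearman's rho -0.45, exact p = 0.23, adjusted 0.46) to 0.34 (CFB and CFD, exact p = 0.36, adjusted 0.57; rho 0.02, exact p = 0.98, adjusted 1). So among low prolificacy sows the activators were not shown to rise together, nor the regulators (CD59 and C4BPA, r = 0.10, exact p = 0.78, adjusted 0.89; rho 0.08, exact p = 0.84, adjusted 0.98). Without the 2 arrays farthest from the median of the first gene, the r of CFD and C4BPA was 0.13, that of CFB and CFD 0.23 and that of CD59 and C4BPA -0.33.

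By Pearson's r, the relations with the smallest p were those of C4BPA and CFD with the stroma list, and by Spearman's rho that of CFB with the interferon response, followed by C4BPA with the adipocyte mean (rho 0.75, exact permutation p = 0.025, adjusted 0.31; r = 0.52, exact p = 0.15, adjusted 0.41; 0.42 without low 5 and low 2). C4BPA had r = 0.82 with the stroma mean (exact permutation p = 0.0076, adjusted 0.26; rho 0.72, exact p = 0.037, adjusted 0.31), but 0.47 without low 8 and low 9. CFD had r = -0.78 (exact p = 0.013, adjusted 0.26; rho -0.73, exact p = 0.031, adjusted 0.31), and -0.79 without the same arrays. CFB had r = 0.73 with the epithelium mean (exact p = 0.022, adjusted 0.26; rho 0.60, exact p = 0.097, adjusted 0.31), which fell to 0.37 without low 7 and low 9. With the interferon response mean CFB had r = 0.74 (exact p = 0.028, adjusted 0.26; rho 0.83, exact p = 0.0083, adjusted 0.31), and 0.82 without low 2 and low 5. CD59 had r = 0.70 with smooth muscle (exact p = 0.037, adjusted 0.26; rho 0.60, exact p = 0.097, adjusted 0.31), but 0.38 without low 7 and low 5. It had r = -0.72 with the interferon response (exact p = 0.035, adjusted 0.26; rho -0.62, exact p = 0.086, adjusted 0.31), and -0.63 without low 2 and low 5. In each case the arrays left out were those farthest from the median of the list mean. That narrows its range, which can itself lower r, so a lower r does not show that a relation rests on those sows. CFD and the adipocyte mean had r = 0.10 (exact p = 0.81, adjusted 0.89; rho -0.03, exact p = 0.95, adjusted 1), and 0.19 without low 5 and low 2.

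**Figure D5:**
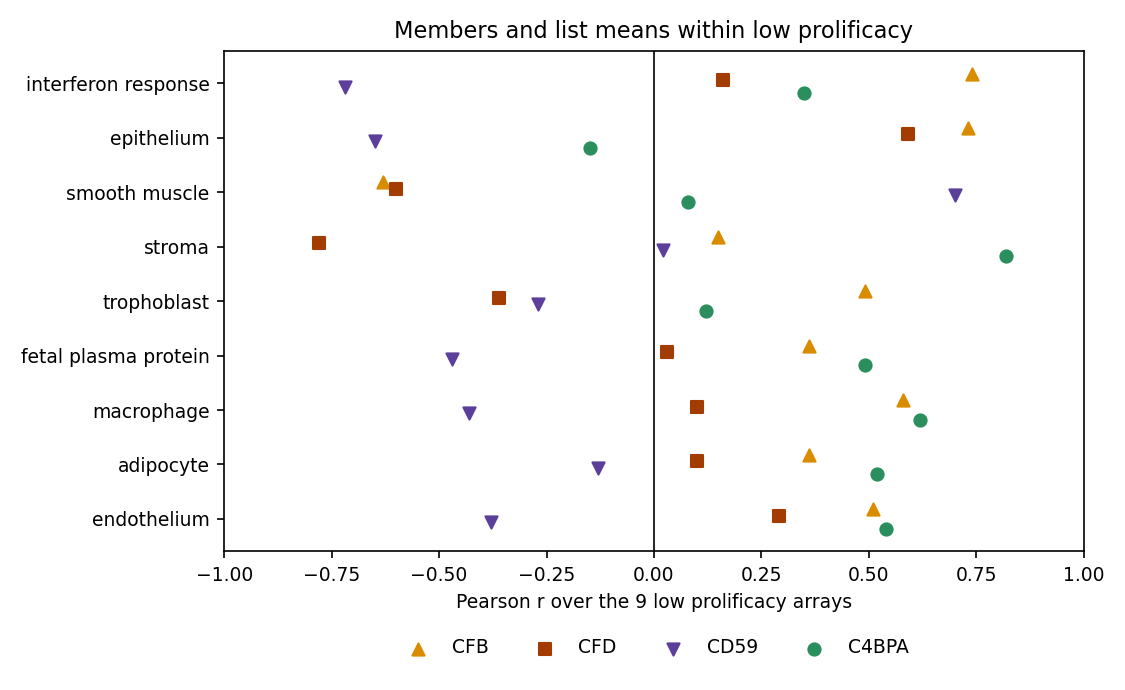
Pearson's r over the 9 low prolificacy arrays between each member (symbols) and the mean of each of 9 gene lists (rows). The values farthest from 0 are 0.82 (C4BPA and stroma) and -0.78 (CFD and stroma), and none of them passed after adjustment over the 42 relations.

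Genes with the most similar pattern were ranked by Pearson's r over the 14 arrays after the class means were subtracted, among 6764 other genes, as a description of arrays that share RMA processing and tissue composition. Nearest to CFB were WFDC2, a secreted protein of epithelia (r = 0.87), LOC100524999 (0.85), the protease inhibitor SERPINB2 (0.85) and UXS1, an enzyme of nucleotide sugar synthesis (0.83). For CFD they were the mitochondrial kinase DGUOK (r = 0.96), the epithelial junction protein PPL (0.94), the ribosomal protein RPS28 (0.93) and the nucleoside transporter SLC28A3 (0.92). CD59 had the secreted protein C1QTNF2 (r = 0.96), the galectin LGALS1 (0.92), the tropomyosin TPM2 (0.92) and the actin cross-linker FLNA (0.91), of which TPM2 is one of the smooth muscle markers used here. Beside C4BPA stood AGMAT, an agmatinase (r = 0.89), the urokinase PLAU (0.87), SHAS2 (0.84) and the methyltransferase SMYD2 (0.83). The 4 sets shared no gene. Over the 9 low arrays alone these r were 0.84 to 0.94 for CFB, 0.93 to 0.97 for CFD, 0.76 to 0.90 for CD59 and 0.63 to 0.86 for C4BPA. Those arrays are among the 14 used for the ranking, so these r are not a separate check. How high the best of 6764 genes would reach by chance was not tested.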

How the data were processed

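Levels were measured in uterus of 14 sows with 1 array each. The deposited values are log2 levels per probe set, which the authors made with RMA (per the submitters' processing notes, without version or settings). RMA equalises array distributions, so a shift shared by most transcripts would not show. Of 24123 probe sets 124 Affymetrix controls were left out. Gene symbols were those of the platform annotation, some of them out of date: of 23999 probe sets 10069 had 1 symbol, 198 several and 13732 none. Of the 10069, 9961 were found by gene number in the Sscrofa11.1 table. A gene was its brightest probe set.

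High minus low prolificacy was fitted with limma 3.58.1 in R 4.3.3 (lmFit, eBayes, two-sided, Benjamini-Hochberg over 23999 probe sets, threshold 0.05), and SE is limma's moderated SE. Relations used exact two-sided permutation over all 362880 pairings (Python 3.11.15), adjusted over 42. Named were all member probe sets, other complement genes that passed, the 2 with the smallest p per role, C3, CD46, CD55, SERPING1 and CLU, and the 4 genes most like each member; C1R, C1S, C2, C4BPB and the further genes of each role were added after their values were seen. Some genes of that rule are not reported here. Members and lists were chosen with earlier results of these data known. On simulated data of 23999 probe sets for high against low prolificacy, 66% of log2 changes of 1 and 88% of changes of 2 were recovered, with 8 false calls among 141. The simulated noise was normal and independent between probe sets. The deposited arrays share differences in tissue composition that the simulation lacks, so these rates need not hold for them. Nothing in the labels says that the replicate numbers pair the sows. The number of arrays limits precision.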

Additional observations from a re-analysis of the deposited data

Results flagged for a closer look

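A single array stood apart from the rest of its class in 5 of 72 class and probe set combinations examined among the members, the other complement genes and the activator minus regulator value; chance gives about 1 in 20. The brighter CFB probe set was at 8.37 in high 2, with the next high array at 7.56. C5 was at 4.25 in low 5, next to 3.50, and CR1 at 3.29 in high 4, next to 2.48. CPN1, a subunit of the carboxypeptidase that inactivates anaphylatoxins, was at 5.75 in low 3, next to 5.14. CD46 was at 8.85 in high 5, below the next at 9.90.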

How the results depend on the processing

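The signs of the 6 member differences held in every fit without 1 array: CFB 1.57 to 1.92 and 0.60 to 0.80, CFD 1.88 to 2.31, CD59 -1.72 to -1.22 and -1.60 to -1.17, C4BPA -1.67 to -1.07. With the smooth muscle and epithelium covariates CFD was 0.59 and CD59 turned to 0.43 and 0.30, and the counts were 0 array-wide (0 higher, 0 lower) and 0 lower among the other complement genes; the cause was not tested. Array weights gave 3060 calls (1529 higher). The fit on the 12000 brightest probe sets, which hold 12 of the 29 other complement genes and not CR1, also gave 0 lower. The replicate block gave 35 calls (6 higher, 29 lower), 0 lower among the other complement genes (CR1 -1.41) and 0 member probe sets called. Its differences were 1.28 and 0.59 for CFB, 1.88 for CFD, -1.34 and -1.39 for CD59 and -1.48 for C4BPA. That fit rests on high 1 to high 5 and low 1 to low 5, since low 6 to low 9 had no high array of their number. Same-numbered sows correlated at -0.25 to 0.42 in their deviations from the class means, and 1 of 5 high arrays correlated best with the low array of its number. Without 1 array the array-wide count ran from 944 (without high 3) to 2650 (without high 1), 338 to 1301 higher and 606 to 1356 lower; it was 1002 without high 2, against 1885 with all. Among the other complement genes it ran from 0 to 1 higher (MBL2, without high 1) and 0 to 1 lower (CR1). After the data were seen, leaving out high 1 and high 4 was added (2979 calls, 1546 higher; brighter CD59 -1.97), as was leaving out low 7 and low 9 (1065 calls, 389 higher, 676 lower), where C4BPA (-1.25) and the dimmer CFB probe set (0.67) did not pass. The activator minus regulator difference of 3.28 ran from 2.99 to 4.04 under cyclic loess, averaging over a gene's probe sets and left-out arrays. It was not computed in the other fits, among them those with the covariates and the replicate block. Of 42 relations, 0 passed under any of the 12 alternatives. Signal over background is unknown, which limits the dim genes.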
